A study of Mus musculus with 12 samples.

Results

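The genes described here are the long non-coding RNA genes listed for V-125 in mammary tumors of MMTV-Neu mice. Of 1589 genes in the deposited table that sets V-125 against control tumors, 191 carried a long non-coding biotype, and the 126 of them with a mean normalized count of 5 or more over the 8 tumors were chosen as members. The table lists only genes that the authors had selected on an unadjusted p-value under 0.05 in this same contrast. All differences between V-125 and control tumors below are therefore a description of genes chosen for differing, and no test was run on them. Tumors came from female mice of the MMTV-neu genotype, in which the mouse mammary tumor virus promoter drives the Neu (HER2) oncogene in mammary epithelium, and this transgene was shared by every group. The mice ate a control diet, V-125 at 100 mg/kg diet or bexarotene at 100 mg/kg diet for 10 days, with 4 tumors per group. Both agents are rexinoids, synthetic agonists of the retinoid X receptor (RXR), and bexarotene is the approved drug of this class. Libraries were poly(A)-enriched from total RNA of whole tumors, in which fewer cells of a type and less RNA per cell cannot be told apart.

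Long non-coding RNAs are transcripts that are often spliced and polyadenylated like mRNA but hold no long open reading frame. Some act on the chromosome they are made from, such as the imprinted antisense transcripts that silence their neighbors, and others are hosts from which microRNAs or small nucleolar RNAs are cut. Many are divergent or antisense transcripts of a protein-coding gene and share its promoter or body. RXR itself works as a ligand-dependent transcription factor on DNA, mostly as a heterodimer with other nuclear receptors, and its ligands can thus alter coding and non-coding transcription alike.

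Among the 126 members, 48 were higher and 78 were lower with V-125 than in control tumors. The higher share was 38.1%, compared with 51.4% of all listed genes and 54.0% of the 1313 listed protein-coding genes. Per gene the difference was taken between the group means of log2(normalized count + 1), where a normalized count is the read count divided by a size factor for the tumor, and its error is the standard error (SE) over 4 against 4 tumors. On this scale, which understates the difference of genes with few reads, the members reached from −2.99 for Gm16159 to 4.05 for Gm16120. The median size was 1.44 against 0.87 over all listed genes, but 0.75 in the 23 members with a mean count of 100 or more. Genes with few reads pass the authors' cutoff mostly with large differences, and the members had lower counts than all listed genes (medians 27.3 and 221). In 64 members (50.8%) every tumor of one group lay above every tumor of the other, while this held for 38.6% of all listed genes. Of these, 26 were higher and 38 lower with V-125. They made up 20.6 and 30.2% of the members, where the percentages over all listed genes were 21.1 and 17.6. Because the authors' selection and the minimum level were applied to these same tumors, nothing is read from the distance between these percentages or median sizes.

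**Figure D1:**
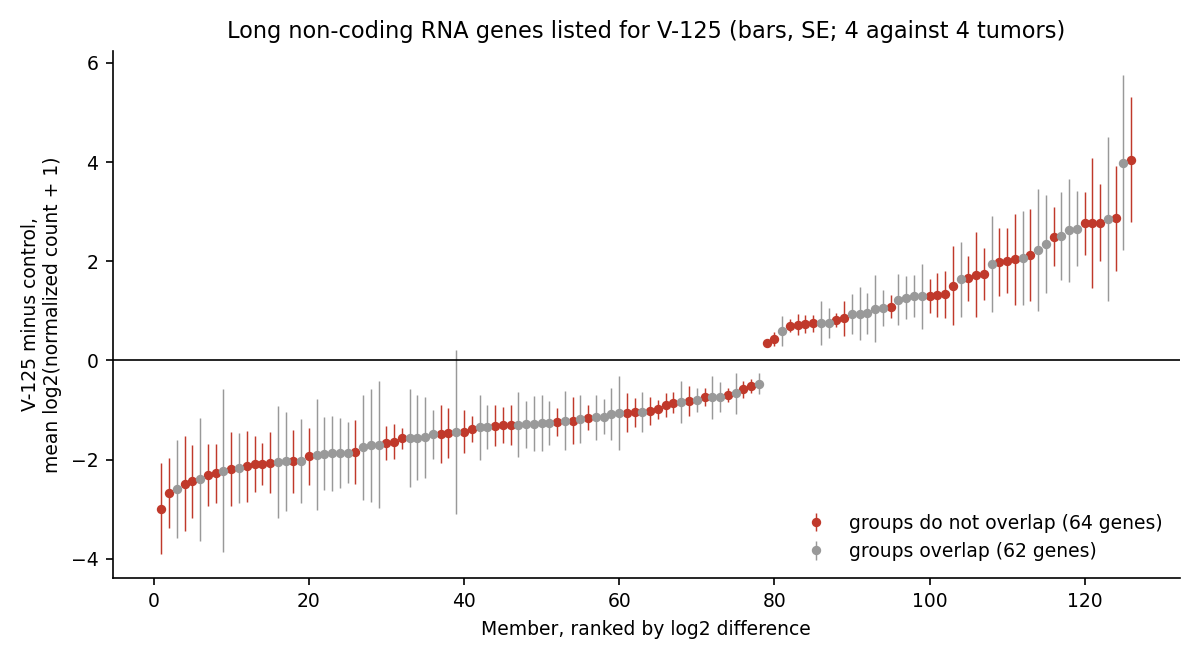
The 126 members are ranked by log2 difference (V-125 minus control, mean of log2(normalized count + 1), y axis), and bars show the SE over 4 against 4 tumors. The 64 red points are members whose groups do not overlap, the 62 gray points are those whose groups overlap, and no member lies at 0, as only genes chosen for a difference were listed.

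By biotype the members comprised 44 lincRNA genes, 35 antisense genes, 22 TEC loci, 16 processed transcripts, 5 sense intronic genes, 3 bidirectional promoter genes and 1 sense overlapping gene. TEC marks loci with transcript evidence that still await experimental proof. The lincRNA genes were evenly divided, with 22 higher and 22 lower, and 21 of them had groups without overlap. Antisense genes were lower in 23 cases and higher in 12. TEC loci were mostly lower, with 19 lower and 3 higher, and 16 of the 22 had a mean under 20 normalized counts. Of the 65 long non-coding genes below the minimum of 5, 21 were higher and 44 lower. Just inside the minimum were Gm48127 at 5.16, Gm37738 at 5.52 and AU022754 at 5.52, and just outside it were Gm49512 at 4.67, C130083A15Rik at 4.65 and Gm12631 at 4.63.

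Most members were weakly expressed. Their median mean count was 27.3, against 347 for listed protein-coding genes, with 52 members under 20 and 23 at 100 or more. Per length, the median was 0.88 FPKM against 5.05 FPKM. Depth was not counted directly but derived from the counts, FPKM and lengths of the listed genes, as a median over genes. By this estimate it ranged from 15571690 to 22574865 reads assigned to genes in a tumor. The members took 0.101 to 0.133% of these reads in V-125-treated tumors and 0.167 to 0.252% in control tumors. The member with most reads was C530043A13Rik, a lincRNA gene on chromosome 1 from 73522095 to 73529790, minus strand (coordinates as in GRCm38). It was named for this abundance after its values were seen. It held 46.1 to 51.5% of all member reads with V-125 and 58.3 to 77.4% in control tumors. Without it, the members took 0.0507 to 0.0645% and 0.0570 to 0.0697% of the reads, and the groups overlapped. Normalized counts of C530043A13Rik itself, ordered by replicate from 1 to 4, were 9752, 9177, 9317 and 12368 with V-125 and 35029, 18047, 17542 and 22660.1 in control tumors, so that every control tumor was above every V-125-treated tumor (log2 difference −1.15 ± 0.25). Values by tumor are given in this order throughout.

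The tumors did not contribute evenly. Among the 48 higher members, V-125 replicate 1 was the highest of its group in 21 and V-125 replicate 2 the lowest in 26, and control replicate 1 was the lowest control tumor in 31, at 0 in 14 of them. For the 78 lower members, V-125 replicate 1 was the lowest of its group in 35 and V-125 replicate 3 the highest in 31. Some cell type markers moved along with single tumors. Of 10 T and NK cell markers only Cd2 was listed, at 195 in V-125 replicate 1 and at 3.17 to 23.8 in the other V-125-treated tumors, and of 6 B cell and plasma cell markers only Mzb1 was listed, at 48.0 in V-125 replicate 1 and 1.90 to 5.96 in the others. In control tumors both genes were at 0 to 5.59. Itgam was the only listed macrophage marker of 9, at 30.7 to 60.6 with V-125 and 65.5 to 89.0 in control tumors, and Kdr was the only listed endothelial marker of 7, at 539 to 835 and 251 to 498. No marker among 7 of fibroblasts and 6 of adipocytes was listed. Of 13 luminal markers 5 were listed (Wap, Epcam and Cdh1, lower with V-125, and Esr1 and Prlr, higher), with a summed count, made up mostly of Epcam, of 36144 to 43481 with V-125 and 44846 to 64577 in control tumors, and of 8 basal markers Trp63 and Acta2 were listed, with sums of 97.3 to 609 and 525 to 1032. The part of these shifts in the member values was not tested.

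Gm16025 is a lincRNA gene located on chromosome 1 from 85326729 to 85342615, plus strand (GRCm38). Its longer annotated transcript has 2 exons and 2425 bases. In V-125-treated tumors it had 659, 113, 94.3 and 458 normalized counts, compared with 34.6, 39.3, 53.5 and 17.9 in control tumors. All V-125-treated tumors lay above all control tumors, with replicates 1 and 4 well above replicates 2 and 3. The group means were 331 ± 275 and 36.3 ± 14.7 (SD, n = 4), and the log2 difference was 2.78 ± 0.77. When each tumor was left out in turn, the difference stayed between 2.29 and 3.22. The T cell and NK cell marker Cd2 was at 195 in replicate 1 and at 3.17 in replicate 4, and its part in these values was not tested.

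The start of Gm16025 lies inside the body of Gm2619, a transcribed pseudogene on the minus strand whose own start is 577 bases away, and both genes overlap over 578 bases without shared exon bases. Exon 1 of Gm16025, chr1:85326729-85326921, plus strand, is printed to show part of the stretch on which the opposite strands of both genes meet. It is written in lower case throughout, since no part of it is singled out.
Gm16025 exon 1: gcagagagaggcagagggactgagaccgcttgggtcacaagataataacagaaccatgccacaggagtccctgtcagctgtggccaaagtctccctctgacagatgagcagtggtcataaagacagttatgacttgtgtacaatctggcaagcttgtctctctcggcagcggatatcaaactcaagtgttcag
Gm2619 had 56.2, 17.1, 3.97 and 35.95 with V-125 and 1.15, 10.4, 11.98 and 5.12 in control tumors. It was highest in the same V-125 replicates 1 and 4, but the groups overlapped because V-125 replicate 3 was below several control tumors (log2 difference 1.65 ± 0.97). With another overlapping gene in the annotation, 444 of the 2425 exon bases of Gm16025 are shared, and reads from those bases cannot be told apart. Whether the counting used strand is not given in the sources used here.

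Gm16120, a gene antisense to the spindle checkpoint gene Mad1l1, had the largest difference of all members. Its counts were 126, 35.1, 71.5 and 63.4 with V-125 and 0, 0, 26.4 and 9.39 in control tumors, without overlap (log2 difference 4.05 ± 1.27). Gm21718, a lincRNA gene on chromosome 14, had 104, 23.7, 16.9 and 8.46 with V-125 and 1.15, 0, 7.19 and 7.68 in control tumors. Its groups barely separated, at 8.46 against 7.68, and V-125 replicate 1 stood far above the others (log2 difference 2.87 ± 1.06). AV039307, a processed transcript across Ubr1, a ubiquitin ligase gene, was even within the treated group, with 12.3, 11.4, 14.9 and 14.8 with V-125 and 0, 4.62, 2.40 and 0 in control tumors (log2 difference 2.77 ± 0.64). It was thus at nearly the same low level in all 4 treated tumors, on 53 reads in total. AV039307 shares 24.0% of its exon bases with Ubr1 on the opposite strand, and reads from those bases cannot be told apart. Gm48127, a sense intronic gene, had 7.15, 6.65, 16.9 and 6.34 with V-125 and 0, 3.47, 0.799 and 0 in control tumors, with only a few reads behind each control value (log2 difference 2.50 ± 0.59). It overlaps Gramd1b on the same strand, and RNA of that gene that retains introns cannot be told apart from it. Overlapping annotated genes share 32.8% of its exon bases. The antisense genes Gm47806 and Gm36840 followed with log2 differences of 2.01 ± 0.65 and 1.98 ± 0.68. Gm47806 ranged over 6.65 to 14.9 with V-125 and 0 to 5.98 in control tumors, and Gm36840 over 22.8 to 42.3 and 2.31 to 17.1. Gm36840 shares 53.6% of its exon bases with Plb1 on the opposite strand, and reads from those bases cannot be told apart. The remaining genes among the 10 highest without overlap, namely 2010007H06Rik, Gm26708 and Grin1os, have listed neighbors and are described with them.

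Among members without overlap, Gm16159 was lowest relative to control. This gene, antisense to Fgfr1, had 0, 10.4, 2.98 and 4.23 with V-125 and 19.6, 36.99, 13.6 and 81.1 in control tumors (log2 difference −2.99 ± 0.91). Gm16230 and Gm12863, both antisense genes, came next. Gm16230 had 4.09, 0.950, 0 and 3.17 with V-125 and 35.7, 17.3, 8.79 and 9.39 in control tumors, and its control values spread over a wide range (log2 difference −2.67 ± 0.70). Gm12863 had 4.09, 14.2, 0 and 8.46 with V-125 and 61.1, 27.7, 24.8 and 14.5 in control tumors, and the gap between the highest V-125 and the lowest control value was narrow (log2 difference −2.48 ± 0.95). The other 7 of the 10 lowest were Gm38534, 3110006O06Rik, B430203G13Rik, AU022754, Gm13398, Gm38192 and Gm37170, with log2 differences from −2.44 to −2.08. All 7 had means of 0.988 to 4.76 normalized counts with V-125 and 9.78 to 18.8 in control tumors, and therefore rest on few reads. Gm38192, a TEC locus, was the most even of them in control tumors, with 18.4, 17.3, 20.8 and 18.8 against 10.2, 5.70, 0.993 and 2.11 with V-125.

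**Figure D2:**
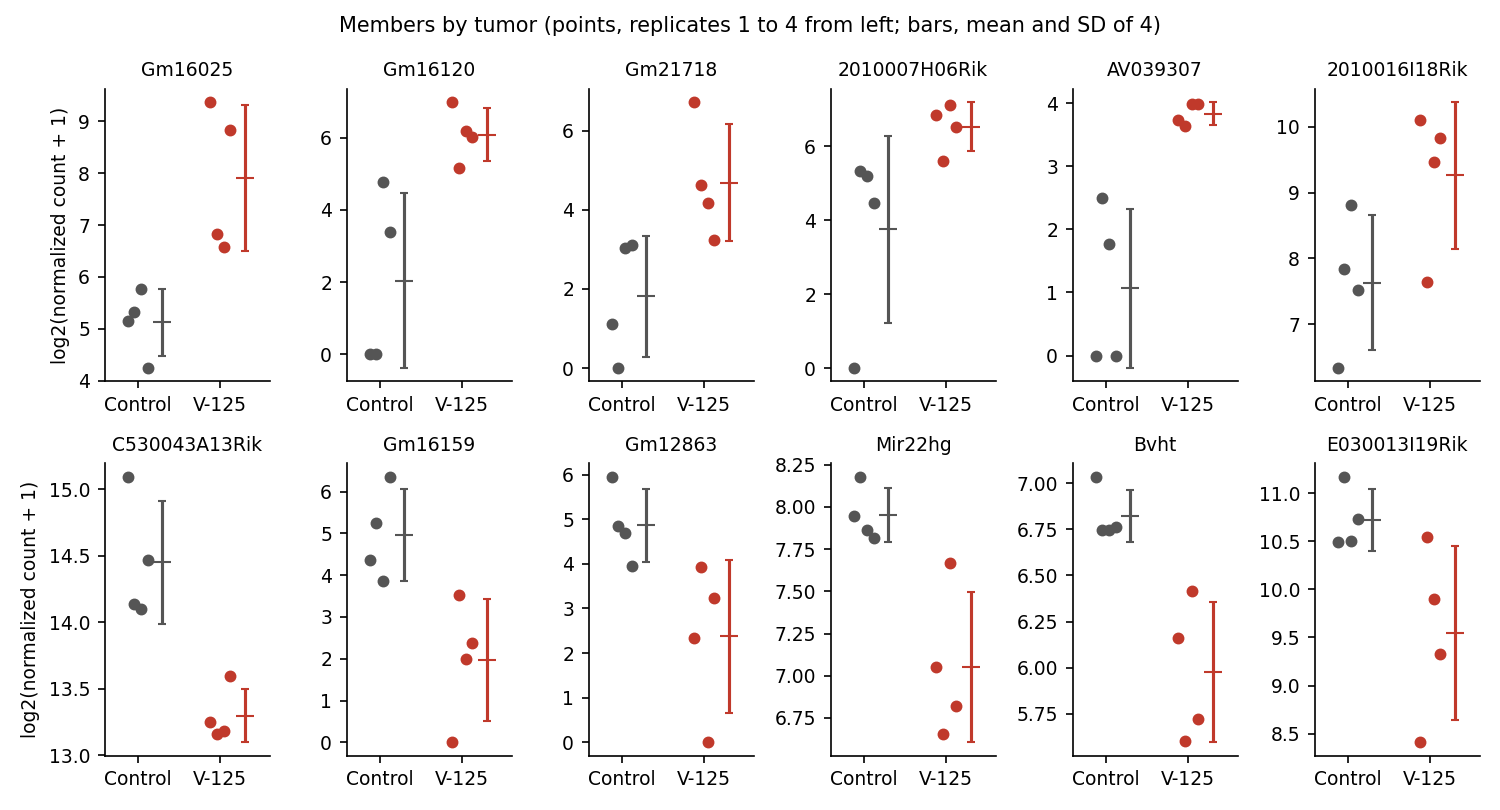
Log2(normalized count + 1) of 12 members is shown for each control (gray) and V-125-treated tumor (red), with the mean and SD of 4 tumors beside the points. In 10 panels the groups do not overlap, while for 2010016I18Rik and E030013I19Rik 1 V-125-treated tumor lies within the range of the control tumors.

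Of a list of 68 genes, most of them long non-coding RNA genes with established names, 10 were listed, with 3 higher and 7 lower. The higher ones include Trerf1, a symbol shared with a coding gene, as described below. Gm16025, which is among the higher ones, has only a provisional name. It was put on that list because it had been singled out beforehand. Mir22hg, the host of microRNA miR-22, had 132, 99.7, 203 and 112 with V-125 and 246, 289, 232 and 225 in control tumors, so that V-125 replicate 3 came closest to the control range and no values overlapped (log2 difference −0.90 ± 0.24). Bvht, known as Braveheart from the cardiac lineage, had 70.5, 47.5, 84.4 and 51.8 with V-125 and 130.3, 106, 106 and 108 in control tumors, again without overlap (log2 difference −0.85 ± 0.20). Zfas1, a host of small nucleolar RNAs next to Znfx1, had 471, 333, 244 and 346 with V-125 and 664, 557, 774 and 359 in control tumors. Its groups overlapped because control replicate 4 was at the level of the treated tumors (log2 difference −0.74 ± 0.31). Lockd, a lincRNA gene known from erythroid cells, had 106, 111, 60.6 and 105 with V-125 and 262, 91.3, 192 and 102 in control tumors, and its control tumors split into a higher and a lower pair (log2 difference −0.66 ± 0.42, or −0.38 without control replicate 1).

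Of the lower ones, 3 are imprinted transcripts. Airn, the antisense transcript that silences Igf2r on the paternal chromosome, had 148, 172, 339.6 and 155 with V-125 and 203, 393, 298 and 583 in control tumors. V-125 replicate 3 lay within the control range (log2 difference −0.84 ± 0.42). Kcnq1ot1, which silences genes of the Kcnq1 domain, had 214, 231, 379 and 415 with V-125 and 329, 468, 388 and 1012 in control tumors, with a single high control tumor, without which the difference was −0.40 (log2 difference over all tumors −0.74 ± 0.43). Rian, a maternally expressed host of small RNAs in the Dlk1-Dio3 domain, had 52.1, 3.80, 66.5 and 10.6 with V-125 and 36.9, 104, 154 and 90.5 in control tumors (log2 difference −2.04 ± 1.00, or −1.32 without V-125 replicate 2). All of these groups overlapped, and the spread within each group was wide. On the higher side were Mirt1, a transcript named for its induction in myocardial infarction, with 40.9, 15.2, 28.8 and 28.6 with V-125 and 11.5, 19.7, 8.79 and 5.98 in control tumors (log2 difference 1.27 ± 0.44), and Trerf1, with 104, 88.3, 44.7 and 35.95 with V-125 and 26.5, 17.3, 54.3 and 17.9 in control tumors (log2 difference 1.23 ± 0.52). The table types Trerf1 as a processed transcript, although the symbol is that of transcriptional regulating factor 1, a zinc finger protein, and reads of coding and non-coding transcripts of this gene cannot be told apart.

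Neighboring listed genes were taken by chromosome and by the distance between gene bodies. Of the 126 members, 20 overlapped another listed gene, and in all 20 the nearest listed gene had the same direction, as it did in 38 of 45 listed protein-coding genes (84.4%). Within 10 kb the counts were 28 of 28 members, against 82.1% of protein-coding genes. Within 100 kb they were 38 of 43 members (88.4%), against 70.1%, and beyond 100 kb 49 of 83 (59.0%), against 50.8%. Genes close together can share reads, and unlisted neighbors do not enter these counts. The protein-coding counts are not separate from those of the members, because the coding partners of members are among them. A pair formed by members enters once for each of its genes. The overlaps formed 19 distinct pairs, 9 with both genes higher and 10 with both lower, 16 of them on opposite strands and 3 on the same strand. In 11 pairs the genes had exon bases in common, and in 8 they had none. In the GENCODE annotation, in which all 126 members were found, 40 members overlapped no other gene and 62 overlapped a protein-coding gene, most of which were not listed.

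**Figure D3:**
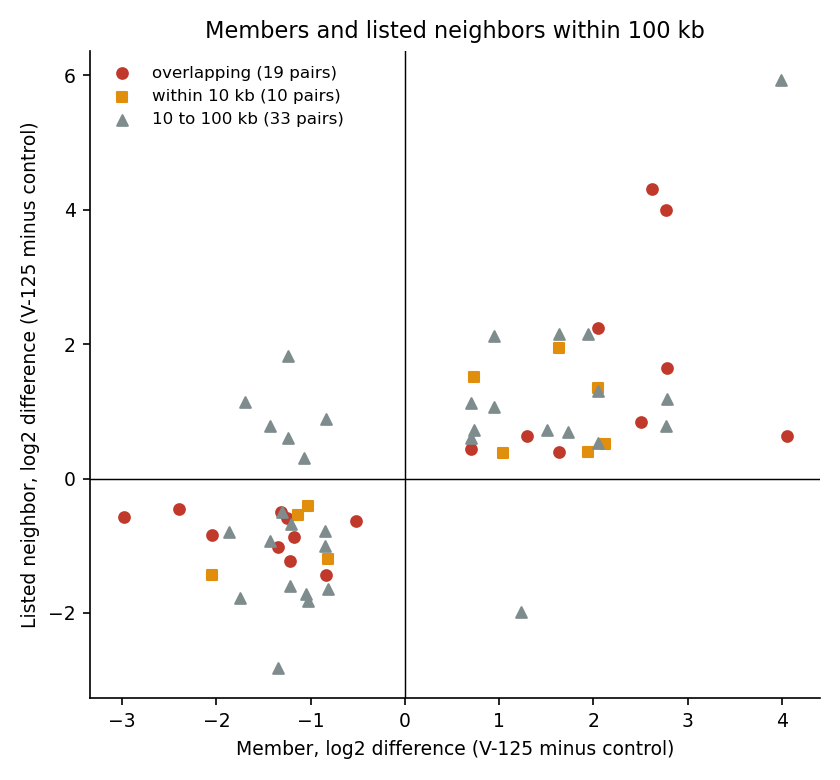
The log2 difference (V-125 minus control) of each member (x axis) is plotted against that of a listed gene within 100 kb (y axis) for 62 pairs. All 19 overlapping pairs and all 10 further pairs within 10 kb lie in the quadrants of equal direction, and the 7 pairs of opposite direction are 10 to 100 kb apart.

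Several of the higher pairs included genes with large differences of their own. Gm26578, a lincRNA gene of 7256 bases inside Nrg1 on the opposite strand, had 30.7, 2.85, 16.9 and 26.4 with V-125 and 4.61, 0, 6.39 and 0 in control tumors. V-125 replicate 2 lay within the control range (log2 difference 2.62 ± 1.05). Nrg1, which encodes a ligand of ERBB receptors, had 197, 63.6, 103 and 321 with V-125 and 19.6, 1.16, 7.19 and 6.83 in control tumors, and its lowest treated tumor was the same replicate 2 (log2 difference 4.30 ± 0.84). The exons share 482 of 4611 bases of Gm26578. Grin1os had 25.5, 18.997, 35.7 and 23.3 with V-125 and 0, 13.9, 8.79 and 10.2 in control tumors, without overlap (log2 difference 2.04 ± 0.92, or 1.15 without control replicate 1). It lies inside Grin1, a gene for an NMDA receptor subunit, on the opposite strand. Grin1 had 54.2, 27.5, 28.8 and 23.3 with V-125 and 0, 11.6, 15.2 and 10.2 in control tumors. Of the exon bases of Grin1os, 45.2% are shared with Grin1. Both genes were at 0 in control replicate 1. Lrrc26, an auxiliary subunit gene of BK potassium channels, ends 39 bases before Grin1os on the same strand and had 2041, 1033, 1463 and 1497 with V-125 and 945, 481, 569 and 417 in control tumors, at a far higher level and also without overlap (log2 difference 1.35 ± 0.33).

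2010007H06Rik and Colca2 form a divergent pair on chromosome 9 whose starts overlap. 2010007H06Rik had 114, 47.5, 139 and 91.999 with V-125 and 0, 39.3, 35.9 and 21.3 in control tumors, without overlap (log2 difference 2.77 ± 1.31, or 1.52 without control replicate 1, where it was at 0). Colca2, whose product is a cofactor of POU domain transcription factors in tuft cells, had 87.9, 51.3, 126 and 110.0 with V-125 and 0, 4.62, 17.6 and 8.54 in control tumors, also without overlap (log2 difference 4.00 ± 0.94). The RefSeq promoter of Colca2 (GRCm38.p6, chr9:51278505-51278804, minus strand, 250 bases before and 50 after the start) is printed because both genes start in it, and the 57 capitals mark the overlap of both genes.
Colca2 promoter: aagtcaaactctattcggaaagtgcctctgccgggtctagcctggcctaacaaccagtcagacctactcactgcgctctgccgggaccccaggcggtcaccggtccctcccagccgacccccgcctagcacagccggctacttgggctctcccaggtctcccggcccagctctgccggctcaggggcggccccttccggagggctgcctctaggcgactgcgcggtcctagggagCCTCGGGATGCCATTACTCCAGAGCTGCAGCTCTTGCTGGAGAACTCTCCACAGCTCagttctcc
Of its 300 bases, 65.3% were G or C. The overlap makes up 1.16% of the exon bases of 2010007H06Rik, so nearly all of this member lies outside its neighbor.

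On chromosome 3, 2010016I18Rik runs antisense through the start of Dennd2d, a gene for an activator of Rab GTPases, and Gm38244 lies 1113 bases beyond its end. 2010016I18Rik had 1101, 199, 707 and 910.5 with V-125 and 79.5, 229, 450.4 and 182 in control tumors. V-125 replicate 2 was within the control range and the other treated tumors were above it (log2 difference 1.63 ± 0.76). Gm38244, a TEC locus, had 272, 105, 238 and 402 with V-125 and 9.22, 89.01, 169 and 80.2 in control tumors, with the same treated replicate lowest (log2 difference 1.95 ± 0.97, or 1.10 without control replicate 1). Dennd2d was more abundant and more even, with 1649, 1386, 1532 and 1722 with V-125 and 1053, 1337, 1164 and 1227 in control tumors, without overlap (log2 difference 0.40 ± 0.10). Dennd2d shares 407 of the 3697 exon bases of 2010016I18Rik and none of Gm38244.

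The remaining higher members that overlap a listed gene had smaller differences on the coding side. Gm17024, inside Ifrd1, a transcriptional coregulator gene on the same strand, had 57.2, 41.8, 112 and 114 with V-125 and 9.22, 32.4, 55.1 and 45.2 in control tumors (log2 difference 1.30 ± 0.66, or 0.77 without control replicate 1). Its groups overlapped, while those of Ifrd1, with 2810.2, 2332, 2148 and 2388 with V-125 and 2015, 1295, 1583 and 1397 in control tumors, did not (log2 difference 0.64 ± 0.16). A sense intronic gene and intron-retaining RNA of its host cannot be told apart. Gm17182 had 21.5, 5.70, 7.94 and 24.3 with V-125 and 0, 0, 3.19 and 6.83 in control tumors opposite the phosphate transporter gene Slc34a2, with 1557, 1413, 802 and 2572 with V-125 and 1282, 618, 629 and 875 in control tumors, and both pairs of groups overlapped. D330041H03Rik had 66.4, 68.4, 72.5 and 84.6 with V-125 and 36.9, 54.3, 43.9 and 43.5 in control tumors, without overlap (log2 difference 0.70 ± 0.14), next to a log2 difference of 0.44 ± 0.20 for Abca3, a lipid transporter gene with 2232 to 4312 normalized counts, with which it shares 24.4% of its exon bases. Mad1l1, the gene opposite Gm16120, had 784, 509, 657 and 794 with V-125 and 473, 354, 482 and 452 in control tumors, without overlap and with no exon bases shared (log2 difference 0.63 ± 0.18).

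**Figure D4:**
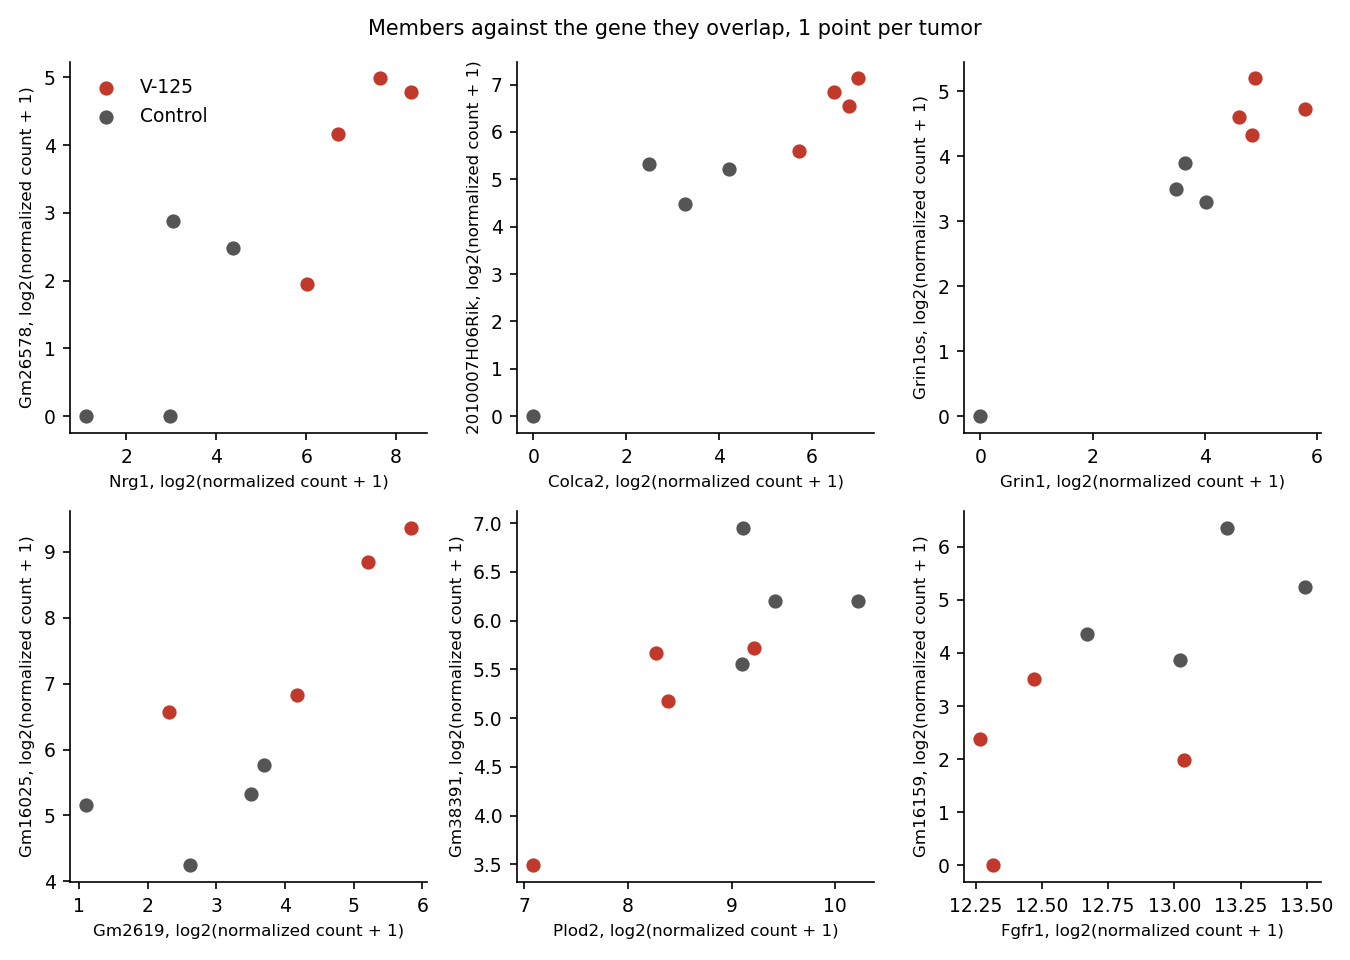
Normalized counts (log2(count + 1)) of 6 members (y axes) are plotted against those of the gene they overlap (x axes), with 1 point per V-125-treated (red) or control tumor (gray). In the panels of Nrg1, Colca2 and Grin1 all treated tumors lie to the right of all control tumors, and in those of Gm2619, Plod2 and Fgfr1 the groups overlap along the x axis.

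The coding partners in the lower pairs included genes for collagen-modifying enzymes, an integrin and a collagen. Gm38391, a TEC locus at the start of Plod2, a collagen lysyl hydroxylase gene, had 10.2, 35.1, 51.6 and 49.7 with V-125 and 46.1, 72.8, 123 and 72.6 in control tumors (log2 difference −1.22 ± 0.60, or −0.71 without V-125 replicate 1). Plod2 had 135, 334, 594 and 307 with V-125 and 548, 682, 553 and 1192 in control tumors, with the same treated replicate lowest (log2 difference −1.22 ± 0.51). Gm4524 had 10.2, 37.04, 15.9 and 14.8 with V-125 and 40.4, 61.3, 30.3 and 58.05 in control tumors (log2 difference −1.35 ± 0.44), and P3h2, a collagen prolyl hydroxylase gene with which it shares 49.0% of its exon bases, had a log2 difference of −1.03 ± 0.41. E030013I19Rik, which starts 976 bases inside the integrin gene Itga8 on the opposite strand, was the most abundant of these members. It had 339, 1490.3, 955 and 644 with V-125 and 1436, 2306, 1448 and 1694 in control tumors (log2 difference −1.18 ± 0.48), and Itga8 had 1112, 3097, 2642 and 1818 with V-125 and 2793, 5106, 2866 and 4609 in control tumors, with V-125 replicate 1 lowest in both genes. 9230112E08Rik, upstream of and partly within the collagen gene Col20a1, had 96.1, 132, 119 and 151 with V-125 and 187, 179, 171 and 171 in control tumors, without overlap and with the smallest difference of the named lower members (−0.52 ± 0.14).

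Gm16159 shares 14.2% of its exon bases with Fgfr1, a fibroblast growth factor receptor gene, which had 5100.3, 5669.7, 8403 and 4931 with V-125 and 6518, 11536, 8319 and 9395 in control tumors. Fgfr1 was far more abundant, its groups overlapped, and its log2 difference of −0.57 ± 0.25 was smaller than that of the member. Gm44020, opposite Tmtc1, had 0 reads in 3 V-125-treated tumors, 1.99 normalized counts in V-125 replicate 3, 0 in control replicate 4 and 35.7, 17.3 and 2.40 in control replicates 1 to 3. The groups thus overlapped, and without control replicate 1 its log2 difference of −2.40 ± 1.24 was −1.59. Another annotated gene shares 87.5% of the exon bases of Gm44020, and reads from those bases cannot be told apart. Gm45501, within Eef1akmt2, was even with V-125, with 10.2, 10.4, 8.94 and 10.6 with V-125 and 14.99, 38.1, 48.7 and 17.1 in control tumors (log2 difference −1.31 ± 0.41), and these groups did not overlap. Both genes lie on the same strand without shared exon bases, so intron-retaining RNA of Eef1akmt2 cannot be told apart from Gm45501. Chn1os3, antisense to the Rac regulator gene Chn1, had 30.7, 18.05, 38.7 and 17.98 with V-125 and 73.8, 97.1, 63.9 and 29.9 in control tumors and overlapped in control replicate 4 (log2 difference −1.25 ± 0.45). CT030636.1 and CT030636.2 lie within Airn on the opposite strand without shared exon bases. CT030636.1 had 5.11, 1.90, 8.94 and 0 with V-125 and 3.46, 11.6, 10.4 and 78.5 in control tumors, and CT030636.2 had 0, 18.05, 5.96 and 5.29 with V-125 and 0, 18.5, 22.4 and 99.02 in control tumors. Both were highest in control replicate 4, the tumor in which Airn was highest too, and without it their log2 differences were −1.24 and −0.52, against −2.04 ± 1.13 and −1.44 ± 1.65 over all tumors. The latter also moved to −0.63 without V-125 replicate 1 and to −2.73 without control replicate 1.

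In a pair of members, transcription starts head to head with a coding gene across a short gap. Gm26708, a bidirectional promoter gene, had 24.5, 16.1, 22.8 and 45.5 with V-125 and 0, 8.09, 14.4 and 8.54 in control tumors, without overlap (log2 difference 2.13 ± 0.93, or 1.26 without control replicate 1, where it was at 0). Abhd17c, a depalmitoylase gene 246 bases away, had 4569, 2990.2, 2848 and 3809 with V-125 and 3001, 1996, 2679 and 2224 in control tumors, with V-125 replicates 2 and 3 within the control range (log2 difference 0.51 ± 0.21). 2210008F06Rik had 26.6, 56.04, 33.8 and 30.7 with V-125 and 96.8, 69.4, 115 and 48.7 in control tumors, and only V-125 replicate 2 lay within the control range (log2 difference −1.13 ± 0.35). Ankrd13b, an ankyrin repeat gene 175 bases away, had 2045, 2263, 2853 and 2486 with V-125 and 2834, 3622, 4299 and 3307 in control tumors, with V-125 replicate 3 just above the lowest control tumor (log2 difference −0.54 ± 0.16). The RefSeq promoters of both coding genes (GRCm38.p6, 300 bases) are printed because each holds both starts as GENCODE places them, and capitals mark the bases between them. That of Abhd17c is chr7:84151844-84152143, minus strand, while RefSeq places the start of Gm26708 itself 80862 bases from the GENCODE start. The promoter of Ankrd13b is chr11:77489629-77489928, minus strand.
Abhd17c promoter: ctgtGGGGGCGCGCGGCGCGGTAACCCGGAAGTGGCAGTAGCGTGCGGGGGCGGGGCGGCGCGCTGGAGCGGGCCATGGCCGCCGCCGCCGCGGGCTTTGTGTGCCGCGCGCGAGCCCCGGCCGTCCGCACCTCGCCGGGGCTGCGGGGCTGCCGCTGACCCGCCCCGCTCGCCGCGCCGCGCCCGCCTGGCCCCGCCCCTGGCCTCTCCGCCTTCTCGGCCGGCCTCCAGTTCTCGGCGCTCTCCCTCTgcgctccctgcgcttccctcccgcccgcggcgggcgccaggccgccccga
Ankrd13b promoter: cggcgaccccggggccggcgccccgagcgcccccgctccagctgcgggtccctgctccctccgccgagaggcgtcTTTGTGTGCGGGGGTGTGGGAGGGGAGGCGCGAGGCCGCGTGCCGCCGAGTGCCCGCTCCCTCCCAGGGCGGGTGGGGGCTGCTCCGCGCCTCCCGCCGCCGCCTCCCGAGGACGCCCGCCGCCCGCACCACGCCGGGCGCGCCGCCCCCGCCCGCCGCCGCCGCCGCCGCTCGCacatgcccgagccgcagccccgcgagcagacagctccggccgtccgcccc
They hold 82.3 and 83.7% G or C with 52 and 51 CpG dinucleotides, whereas the median over 32851 RefSeq promoters of this length was 52.7% and 7.

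Further members lay within 10 kb of a listed gene. Gm20632 and Gm20633 are convergent antisense genes on chromosome 3, and both were members. They overlap the histone genes Hist2h2aa2 and Hist2h2aa1, respectively, on the opposite strand. Overlapping annotated genes share 21.8 and 31.2% of their exon bases, and reads from those bases cannot be told apart. Gm20632 had 102, 75.04, 119 and 94.1 with V-125 and 46.1, 69.4, 55.9 and 60.6 in control tumors, and Gm20633 had 59.3, 37.99, 95.3 and 57.1 with V-125 and 3.46, 30.1, 36.7 and 37.6 in control tumors. Neither overlapped between groups, but the difference of Gm20633 (1.51 ± 0.80) was 0.76 without control replicate 1, whereas that of Gm20632 was 0.74 ± 0.18. 2210039B01Rik, head to head with Tmem30b, a lipid flippase subunit gene, had 156, 26.6, 28.8 and 107 with V-125 and 29.97, 21.96, 43.9 and 23.05 in control tumors. Only V-125 replicates 1 and 4 were above the control range (log2 difference 1.05 ± 0.68, or 0.59 without V-125 replicate 1). Tmem30b had 2045, 1739, 1493 and 1714 with V-125 and 1448, 1265, 1263 and 1368 in control tumors, without overlap. 1110038B12Rik, a processed transcript, had 259.6, 118, 197 and 260.1 with V-125 and 397, 295, 422 and 305 in control tumors, without overlap (log2 difference −0.81 ± 0.30). The heat shock genes Hspa1b and Hspa1a lie 3964 and 16718 bases away and had log2 differences of −1.20 ± 0.35 and −1.65 ± 0.43, and reads of these near-identical copies are uncertain. E230001N04Rik had 37.8, 20.9, 33.8 and 20.1 with V-125 and 78.4, 54.3, 45.5 and 51.2 in control tumors, without overlap (log2 difference −1.02 ± 0.28), 5192 bases from Fkbp5, a gene that glucocorticoids induce, which had 1491, 1409, 1598 and 1687 with V-125 and 2825, 2167, 1557 and 1814 in control tumors with overlap.

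Outside the rule for named genes, Gm47757 was singled out after its values were seen because its neighbor had the largest difference of all pairs. It lies 15792 bases from Sox14, a gene for an HMG-box transcription factor. Gm47757 had 3.07, 0, 106 and 146 normalized counts with V-125, and Sox14 had 81.8, 0, 319 and 519. Both genes were at 0 in all 4 control tumors and in V-125 replicate 2, so that the groups overlapped, and no fold is given. The 7 pairs of opposite direction within 100 kb were all over 10 kb apart, and they included Gm11110 with Dennd1c and Slc25a41, Gm35696 with Rassf3, Trerf1 with 1700001C19Rik and Airn with Acat2.

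Promoter sequences were searched for an exact nuclear receptor hexamer and for 1 kind of repeat of it. RefSeq promoters (GRCm38.p6) were matched by symbol for 53 members with 60 windows, and for 39 of the 53 the RefSeq start lay within 100 bases of the table's gene start. The nuclear receptor hexamer AGGTCA, searched on both strands, was found in 8 windows (13.3%), compared with 16.3% of all 32851 promoters. In members that were higher it was in 5 of 30 windows and in lower members in 3 of 30. Its direct repeat with 1 base between the copies, an element of RXR dimers, was in 0 member windows and in 13 of all promoters (0.0396%). A match describes letters only, and a distant element would not be seen in this window. Repeats with other spacings and inexact copies of the hexamer were not searched, so the counts do not show that elements of retinoid receptors are absent. The promoters of 2010016I18Rik (chr3:106485864-106486163, minus strand) and Airn (chr17:12741061-12741360, plus strand) are printed because they are the named members with the hexamer whose start in the table and in RefSeq coincides, and capitals mark the hexamer on either strand.
2010016I18Rik promoter: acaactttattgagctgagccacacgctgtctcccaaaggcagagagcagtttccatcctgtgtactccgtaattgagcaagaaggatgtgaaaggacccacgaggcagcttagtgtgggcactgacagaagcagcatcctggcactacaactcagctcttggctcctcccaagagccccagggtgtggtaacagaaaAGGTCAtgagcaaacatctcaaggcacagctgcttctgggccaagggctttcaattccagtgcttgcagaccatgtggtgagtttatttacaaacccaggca
Airn promoter: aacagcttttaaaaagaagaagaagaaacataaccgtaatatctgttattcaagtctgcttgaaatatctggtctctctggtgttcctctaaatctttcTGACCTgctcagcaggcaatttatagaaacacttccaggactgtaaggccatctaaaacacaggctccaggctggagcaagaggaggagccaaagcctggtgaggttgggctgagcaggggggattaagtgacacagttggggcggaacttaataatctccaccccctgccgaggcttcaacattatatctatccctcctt

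For bexarotene only group means were used, which the authors deposited for genes listed at the same unadjusted p-value cutoff. Of the 126 members, 36 (28.6%) were also listed there, 22 of them higher and 14 lower with V-125. Over all 1589 listed genes the share was 31.3%. Both comparisons share the control tumors, whose means in both tables differed by a factor of 0.992 to 0.996, so the values are set side by side without a test. Gm16025 had a mean of 113 with bexarotene, 331 with V-125 and 36.3 in control tumors. In normalized counts this was the largest gap of a V-125 mean above a bexarotene mean among the 36 members, and the V-125 mean rests mainly on replicates 1 and 4. Gm16120 had close means with both agents, 68.95 with bexarotene, 73.9 with V-125 and 8.94 in control tumors, as did 2010007H06Rik at 78.7 with bexarotene, 98.2 with V-125 and 24.1 in control tumors. Gm21718 was at 53.2 with bexarotene, 38.3 with V-125 and 4.01 in control tumors, and 2010016I18Rik at 659 with bexarotene, 729 with V-125 and 235 in control tumors.

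Bexarotene means above those of V-125 were seen in 14 of the 22 higher members. Gm47806 had 31.2 with bexarotene, 11.6 with V-125 and 2.76 in control tumors, and C230035I16Rik, a lincRNA gene 46653 bases from the butyrophilin gene Btn2a2, had 87.5 with bexarotene, 40.3 with V-125 and 16.5 in control tumors. In C230035I16Rik the V-125-treated tumors were even, with 43.9, 44.6, 36.7 and 35.95, against 1.15, 20.8, 27.95 and 16.2 in control tumors, and its log2 difference of 1.73 ± 0.86 was 0.89 without control replicate 1. Gm44250, an abundant TEC locus, had 1201 with bexarotene, 994 with V-125 and 621 in control tumors, and its V-125 and control values overlapped, at 1387, 679, 745 and 1164 and 294, 569.9, 1037 and 581. The log2 difference of Gm44250 was 0.75 ± 0.45, or 0.44 without control replicate 1. Gm35363, Gm14133, Gm6297 and 2610316D01Rik were close in both groups, at 274 and 257, 293 and 292, 36.3 and 36.3, and 118 and 134 with bexarotene and V-125. Of these, 2610316D01Rik had 154, 104, 123 and 155 with V-125 and 83.01, 46.2, 54.3 and 70.9 in control tumors, without overlap (log2 difference 1.08 ± 0.23). The groups of Gm35363 and Gm6297 did not overlap either, and those of Gm14133 overlapped. Further higher members of both tables were D330041H03Rik, Gm20632, Gm17024, Gm20633 and Gm38244, with bexarotene means of 84.4, 95.1, 84.7, 66.5 and 258 beside V-125 means of 72.97, 97.6, 81.4, 62.4 and 254. The rest were Gm12002, Gm15559, Gm5546, 5930420M18Rik and 5033406O09Rik, with log2 differences from 0.72 to 2.22.

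Among the 14 lower members, the bexarotene mean was below that of V-125 in 5. Mir22hg had 126 with bexarotene, 137 with V-125 and 248 in control tumors, Gm11110 had 17.6 with bexarotene, 19.9 with V-125 and 49.2 in control tumors, and Gm12863 had 3.58 with bexarotene, 6.70 with V-125 and 32.03 in control tumors. Gm37738 was listed at 0 with bexarotene and had 0, 0, 3.97 and 1.06 with V-125 and 0, 5.78, 11.98 and 21.3 in control tumors. Means above those of V-125 included E030013I19Rik, at 999 with bexarotene, 857 with V-125 and 1721 in control tumors, Zfas1, at 371 with bexarotene, 349 with V-125 and 589 in control tumors, and 1110038B12Rik, at 218 with bexarotene, 209 with V-125 and 354 in control tumors. Gm15867, antisense to Sertad4, had 196 with bexarotene, 176 with V-125 and 391 in control tumors. Its V-125 and control tumors separated by a narrow margin, at 206 against 208 (log2 difference −1.05 ± 0.40). Gm11110, by tumor, had 15.3, 16.1, 22.8 and 25.4 with V-125 and 71.5, 47.4, 32.7 and 45.2 in control tumors, without overlap (log2 difference −1.24 ± 0.28). 2900041M22Rik, 8430426J06Rik, Gm33699, Gm35021 and Gm42576 had V-125 means of 2.56 to 19.2 and control means of 12.8 to 62.2.

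**Figure D5:**
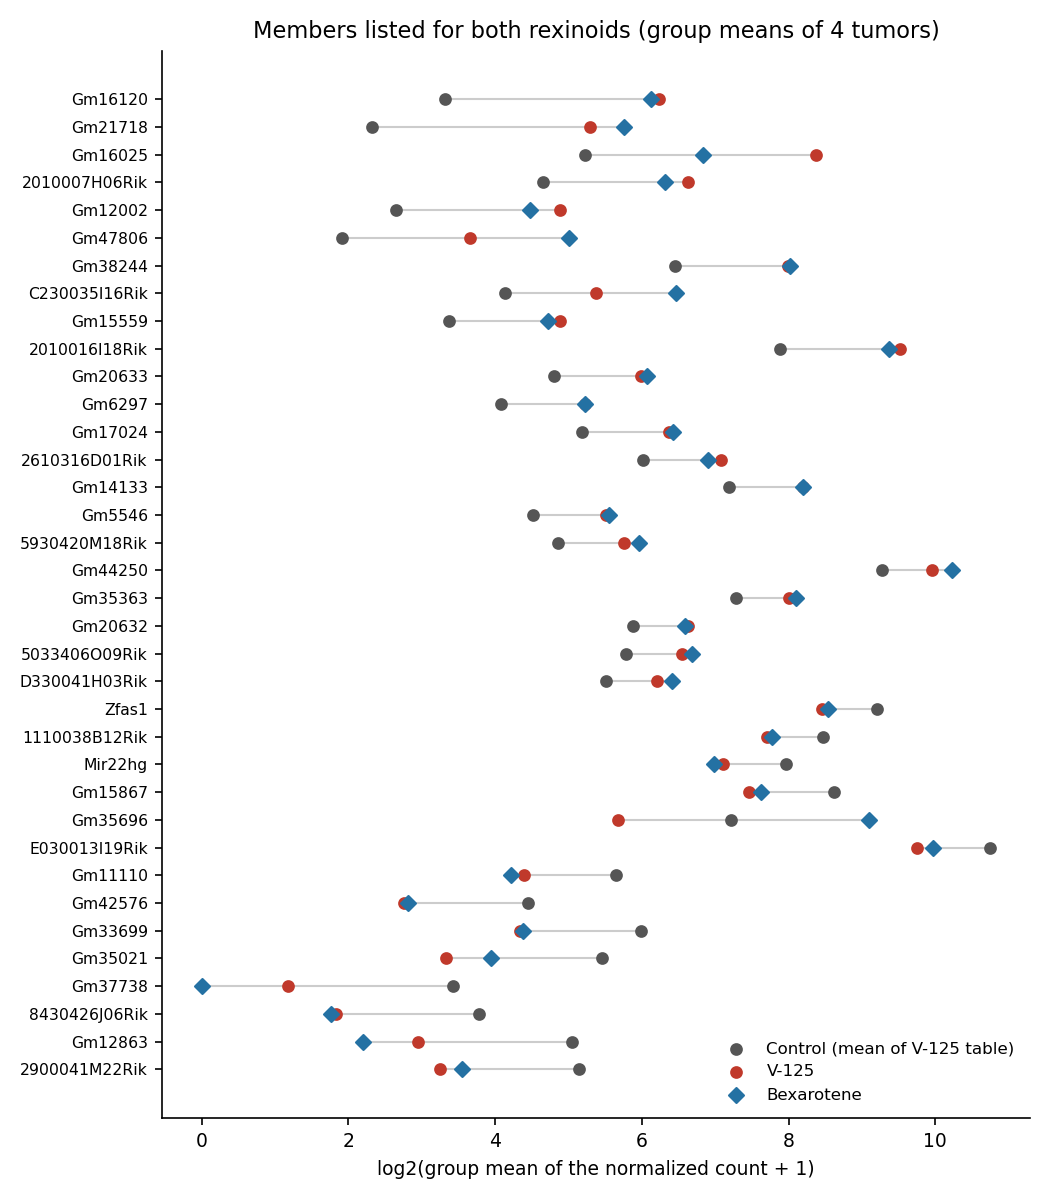
Group means of the normalized count on a log2 scale are shown for the 36 members listed for both agents, with control tumors in gray, V-125 in red and bexarotene in blue, and members ordered by the V-125 difference. Bexarotene points mostly lie close to the V-125 points, Gm16025 has its bexarotene mean between control and V-125, and Gm35696 has its V-125 mean below and its bexarotene mean above control.

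Gm35696, a lincRNA gene on chromosome 10 from 121506623 to 121526101, plus strand, was lower than control with V-125 and higher with bexarotene, at 548 with bexarotene, 50.3 with V-125 and 148 in control tumors. Its values by tumor were 35.8, 51.3, 33.8 and 80.4 with V-125 and 56.5, 389.6, 99.8 and 45.2 in control tumors, and the groups overlapped. The control mean rests on replicate 2, without which the log2 difference of −1.07 ± 0.75 was −0.42. Per-tumor values of bexarotene were not used here, so whether its mean rests on 1 tumor was not determined.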

How the data were processed

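Groups and replicate numbers of the 12 tumors came from the sample labels. Submitters' notes name STAR (2.6.1d), featureCounts (1.5.0-p3) and limma, while the genome build and the strand setting are not given in the sources used here. The authors deposited, for the V-125 comparison, read counts, normalized counts (a signal in which each count is divided by 1 size factor per tumor) and FPKM for each of 8 tumors. For bexarotene the authors' deposited group means were used, matched by gene name. The p-value that the authors deposited was read only to check that both tables, of 1589 and 1784 genes, stop at 0.05. Other comparison values of the authors (log2 fold changes, adjusted p-values) stayed unused.

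Members and gene lists were chosen with earlier results of these data known. Differences are of mean log2(normalized count + 1), V-125 minus control, with SE over tumors, and the code was tested on simulated data. No significance test was run, because the listed genes were selected on this contrast. Named were Gm16025, members listed for bexarotene, the 10 highest and 10 lowest differences without overlap of groups, members within 10 kb of a listed gene and members with established names, 70 in all. Annotation was GENCODE vM21 (GRCm38, 126 of 126 members matched, 122 with the same coordinates), and promoters came from RefSeq (GRCm38.p6, 250 bases before to 50 after each start). Other minimum levels, pseudocounts, FPKM, distances and leaving out each tumor were tried. Python 3.11.15, pandas 2.3.3, numpy 2.4.6 and matplotlib 3.10.9 were used.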

Additional observations from a re-analysis of the deposited data

Results flagged for a closer look

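In each group of 4 tumors, a tumor was singled out when its gap to the nearest of the others took up more of the group's range than Dixon's 95% critical value for 4 samples allows. This was applied to both groups of the 70 named members, 140 groups in all, and 13 groups (9.29%) passed. Chance gives about 1 in 20 for normally distributed values, whereas these are low, skewed counts of genes chosen on the same tumors, so nothing is read from the share.

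Among the higher members, V-125 replicate 1 was singled out in 2 lincRNA genes. V-125 replicate 1 had 104 normalized counts of Gm21718, and the other tumors of the group had 8.46 to 23.7. V-125 replicate 1 had 134 normalized counts of 5033406O09Rik, and the other tumors of the group had 73.5 to 81.7. This tumor also had the highest Cd2 and Mzb1, and the part of those cells was not tested. In the TEC locus and the sense intronic gene it was V-125 replicate 3. V-125 replicate 3 had 89.4 normalized counts of 5930420M18Rik, and the other tumors of the group had 38.1 to 45.0. V-125 replicate 3 had 16.9 normalized counts of Gm48127, and the other tumors of the group had 6.34 to 7.15. In 1 lincRNA gene a treated tumor was below the others. V-125 replicate 2 had 28.5 normalized counts of Gm6297, and the other tumors of the group had 38.1 to 39.9.

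Among the lower members, V-125 replicate 3 stood apart in 3 genes. For Airn, V-125 replicate 3 had 339.6 normalized counts, and the other tumors of the group had 148 to 172. For Lockd, V-125 replicate 3 had 60.6 normalized counts, and the other tumors of the group had 105 to 111. For Gm44020, V-125 replicate 3 had 1.99 normalized counts, and the other tumors of the group had 0. In control tumors the genes were spread over replicates. Control replicate 1 had 130.3 normalized counts of Bvht, and the other tumors of the group had 106 to 108. Control replicate 1 had 26.5 normalized counts of Gm13398, and the other tumors of the group had 2.40 to 5.98. Control replicate 2 had 24.3 normalized counts of AU022754, and the other tumors of the group had 4.27 to 5.76. Control replicate 2 had 389.6 normalized counts of Gm35696, and the other tumors of the group had 45.2 to 99.8. Control replicate 4 had 78.5 normalized counts of CT030636.1, and the other tumors of the group had 3.46 to 11.6. For Gm35696 the control mean, and with it the difference, rests on that tumor.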

How the results depend on the processing

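The number of members was 126 at a mean of 5 or more, 98 at 10 or more and 191 without a minimum. Their split into 48 higher and 78 lower did not depend on the scale, being 48 and 78 with group means of normalized counts and with FPKM. With each tumor left out in turn it was 48 to 48 and 78 to 78, and the number of members without overlap of groups was 66 to 79, against 64 with all tumors, since fewer tumors overlap less. With FPKM it was 64, and among members of 10 or more it was 48. The share of members whose nearest listed gene had the same direction was 88.4% within 100 kb, 89.2% within 50 kb, 100% within 10 kb, 69.0% without a limit and 88.9% by distance between starts. Matching by name or by identifier gave 36 members listed for bexarotene either way. Of 770 alternative log2 differences of the 70 named members, 759 stayed within the spread between tumors, taken as the SD pooled over both groups. The other 11 moved further, 9 of them with a pseudocount of 5 and 2 as a ratio of group means, and 0 changed sign. In groups this small, leaving out 1 tumor cannot shift the difference by as much as this spread. Values without 1 tumor, which are most of the 770, thus had to stay within it, and the 759 do not measure stability against single tumors. Without 1 tumor, 17 of the 70 differences moved by over 1.5 times, 11 of them without control replicate 1. No paired analysis was possible because the groups hold different mice, and equal replicate numbers do not mark the same mouse.

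Depth limits the 52 members under 20 normalized counts, where a few reads set the value and a pseudocount of 5 reduced the difference, and overlapping or antisense genes, whose reads cannot be told apart without the strand setting. The table stops at an unadjusted p-value of 0.05 in the same contrast, so differences are larger than they would be for unselected genes, and genes without a difference, unlisted neighbors and unlisted markers were not analysed here.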

Other observations

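The bexarotene table held 148 long non-coding RNA genes with a mean of 5 or more, counted over the group means of bexarotene and control, and 112 of them were not listed for V-125. Of these 112, the mean was higher with bexarotene for 78 and lower for 34. Absence from a table does not show that a gene did not differ. The largest ratios of means plus 1 on the higher side were those of Gm28187 and AC154187.1, both lincRNA genes. Gm28187 had a mean of 21.4 with bexarotene and 0.199 in control tumors, and AC154187.1 had 19.4 and 0.997. On the lower side were Gm4316, a lincRNA gene, with 0.518 and 28.6, and Gm8098, a processed transcript, with 0.460 and 12.3. These are the authors' means of 4 tumors without an error, and they were chosen after their values were seen.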
